A study of Mus musculus with 12 samples.

Results

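Complex I of the respiratory chain was followed through the 46 of 15767 listed genes whose symbols begin with Nduf, leaving out Ndufa4 and Ndufa4l2. These were 38 genes named as subunits and 8 assembly factors (Ndufaf1 to Ndufaf8). The subunits divided into 7 core subunits, 9 accessory subunits of the matrix arm, 20 accessory subunits of the membrane arm, the acyl carrier protein Ndufab1, and Ndufb11b, which was given no role here. The RNA came from Neuro-2a cells, a line of mouse neuroblastoma, with the genotype labelled WT. Cells received a miR-155 mimic, a miR-155 inhibitor or the control small RNA labelled NC and miR-Con, with 4 libraries in each group. Every group was transfected without serum and antibiotics, put back into complete medium after 4 h and grown until day 2. The libraries carry the numbers 1 to 4 in each group. The labels do not say what a shared number means, or whether the 4 libraries of each group are separate cultures, so p-values measure only the spread of these samples and that spread may be technical. The abundance of miR-155 is not analysed here, so whether the mimic and the inhibitor acted could not be checked. The series title places miR-155 beside the regulators PPARγ, PGC-1α and ERRα and mitochondrial damage, which is why genes of the respiratory chain are of interest here.

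Complex I, the NADH:ubiquinone oxidoreductase, takes electrons from NADH in the mitochondrial matrix, passes them along a chain of iron-sulphur clusters to ubiquinone and pumps protons across the inner membrane. Its core subunits do this chemistry, its accessory subunits surround and stabilise the core, and assembly factors help to build the enzyme without staying in it. The core subunits inside the membrane are encoded in mitochondrial DNA, do not have Nduf symbols and are not described here. Roles given below are those of the mammalian enzyme.

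The libraries held 60695388 to 74200532 counts, and the 46 genes together took 0.378% to 0.449% of them. In the 45 genes that passed the filter on low counts, the lowest count in any library was 792, for Ndufa1. Of 12 markers of sympathetic neuroblastoma, 11 averaged at least 1 CPM (counts scaled to the library size, adjusted by TMM), and Nefm did not. Of the markers of other cells, Pdgfra, Pdgfrb and Fn1 of 10 fibroblast genes, Mbp of 8 glial genes and Pecam1 of 8 immune and endothelial genes reached that level, while Col3a1, Lum, Thy1, Postn, Aqp4, Olig2, Aif1, Itgam, Kdr and Cd3e gave no value here. In such bulk RNA, fewer cells of a type and less RNA per cell cannot be told apart.

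The sequence of the mature guide strand is shown because the added and the blocked RNA both bear on it. Mouse miR-155-5p, at chr16:84714143-84714165 on the plus strand (RefSeq, GRCm38.p6), has its seed, bases 2 to 8, in capitals.
miR-155-5p: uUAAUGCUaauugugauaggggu
The DNA complement of that seed is AGCATTA, and the sites sought on the transcript strand were this match, its 8mer AGCATTAA and the shifted match GCATTAA, which overlaps it. In the longest annotated 3' UTR of each gene (GENCODE M21, GRCm38), 3 of 45 complex I genes held a site, which is 6.67%. The share was 13.4% of the 15498 listed genes with an annotated 3' UTR. These 45 include Ndufb11b and leave out Ndufb1, for which no 3' UTR was found, so they differ from the 45 tested below. All 3 had AGCATTA without the 8mer. The 3' UTRs of complex I genes were short, with a median of 304 bases against 1224 for all these genes. The 3 matches are printed with the sequence around them, 5' to 3' as DNA, with the match in capitals.
Ndufv2 3' UTR: attgtggtaaaAGCATTAtttataaaaag
Ndufb8 3' UTR: gctttaatcccAGCATTAggaaggagaag
Ndufb11 3' UTR: agggcctaagaAGCATTActcatccgctg
The promoter of Ndufb4, a membrane arm subunit, is shown as the one complex I promoter with a match to the element of ERR receptors, since ERRα is named in the series title. RefSeq promoters (GRCm38.p6, from 250 bases before to 50 after the start) were found for 40 of the 46 genes. The ERR element TNAAGGTCA, on either strand, stood in 1 of 40 (2.5%), against 1.43% of 27025 genes. The element of NRF1, a regulator of many nuclear respiratory genes, reads GCGCA, any base, then GCGC, and stood in 9 of 40 on either strand (22.5%), against 5.19% of the same genes. The 9 were Ndufa5, Ndufa6, Ndufa8, Ndufa11, Ndufaf4, Ndufaf5, Ndufb4, Ndufs5 and Ndufs6. The 27025 genes were all those with a RefSeq promoter, expressed here or not, whereas the seed sites were set against listed genes only. In the Ndufb4 promoter, at chr16:37654319-37654618 on the minus strand, the capitals mark 3 NRF1 matches and, just before the last of them, the ERR match. The matches do not overlap there, and a match describes letters, not binding.
Ndufb4 promoter: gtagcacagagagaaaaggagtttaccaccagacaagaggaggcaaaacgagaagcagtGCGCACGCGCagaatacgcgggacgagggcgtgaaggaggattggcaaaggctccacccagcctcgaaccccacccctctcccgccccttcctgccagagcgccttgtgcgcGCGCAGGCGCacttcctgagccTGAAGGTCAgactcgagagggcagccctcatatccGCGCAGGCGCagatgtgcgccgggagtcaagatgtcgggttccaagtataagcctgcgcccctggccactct

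Subunits were more abundant than assembly factors. Mean TPM is per length given to each gene by the authors' processing. By it the 37 subunits that passed the filter ran from 38.6 to 1302 with a median of 134. The 8 assembly factors ran from 12.5 to 68.4 with a median of 32.9. The median of all 13014 genes tested was 19.5 TPM. In 33 of the 37 subunits the mean was above that of the most abundant assembly factor, Ndufaf8, and the other 4 were Ndufv3, Ndufb2, Ndufab1 and Ndufb4. The highest levels belonged to 3 membrane arm subunits, Ndufb9 at 1302 ± 61.1 TPM, Ndufb11 at 938 ± 79.6 TPM and Ndufc2 at 816 ± 62.1 TPM (SD, n = 12 libraries each). Ndufb9 binds the acyl carrier protein in the membrane arm. Ndufab1, that acyl carrier protein, had 45.2 ± 2.44 TPM and Ndufb4 had 38.6 ± 3.61 TPM, the lowest means among subunits apart from Ndufb11b (SD, n = 12 each).

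Among the core subunits reported singly the order by mean TPM was Ndufv2 (296 ± 19.1), Ndufs3 (134 ± 8.18), Ndufs7 (128 ± 10.5), Ndufs8 (121 ± 9.18), Ndufv1 (115 ± 9.48) and Ndufs1 (70.2 ± 4.08), each with its SD over 12 libraries. Ndufs7 lines the pocket for ubiquinone, Ndufv1 binds NADH and the flavin, Ndufv2 and Ndufs1 carry iron-sulphur clusters next to it, Ndufs8 carries clusters on the way to ubiquinone, and Ndufs3 helps to join these modules. In TPM, across all 36 neighbouring pairs of subunits in the order of levels the means differed by more than the larger SD in 14, of which 5 did not overlap between libraries.

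Among assembly factors the order by mean TPM was Ndufaf8 (68.4 ± 6.29), Ndufaf3 (53.9 ± 3.36), Ndufaf5 (51.4 ± 3.51), Ndufaf2 (34.1 ± 1.62), Ndufaf4 (31.7 ± 3.52), Ndufaf6 (29.5 ± 2.18), Ndufaf1 (18.3 ± 1.60) and Ndufaf7 (12.5 ± 1.39), each with its SD over 12 libraries. Ndufaf3 and Ndufaf5 did not differ beyond their spread, nor did Ndufaf2 and Ndufaf4, or Ndufaf4 and Ndufaf6. The other 4 of 7 neighbouring pairs did in TPM, and 2 of them, Ndufaf5 over Ndufaf2 and Ndufaf6 over Ndufaf1, did not overlap. This spread is between libraries and does not cover the length given to each gene. Ndufaf1 belongs to the complex that builds part of the membrane arm, Ndufaf3 and Ndufaf4 act together on the module that binds ubiquinone, and Ndufaf6 acts early in assembly. Ndufaf5 hydroxylates Ndufs7 and is stabilised by Ndufaf8, Ndufaf7 is a protein methyltransferase, and Ndufaf2 is related to the subunit Ndufa12.

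Levels across genes depend on the length each is given. The length implied by the TPM, over that of the longest annotated transcript, was 0.394 for Ndufb11 and 3.21 for Ndufv1. These ratios are scaled to a median of 1 over complex I genes. In CPM per kilobase of the longest annotated transcript, Ndufb9 remained 1st and Ndufc2 3rd of the subunits. Ndufb11, 2nd by TPM, was 5th and Ndufv1, 27th by TPM, was 6th. The order of the core subunits listed above thus changed. Ndufv1 (150 CPM per kilobase) came before Ndufv2 (106), and the others kept their order. Of the assembly factors, Ndufaf8 remained 1st and Ndufaf7 8th, while Ndufaf2, 4th by TPM, was 7th and Ndufaf6, 6th by TPM, was 4th. The subunits below Ndufaf8 (22.5 CPM per kilobase) also changed. Ndufv3 (26.3) lay above it and Ndufb7 (22.4) barely below it. Ndufb9 shares 19.5% of its exon bases with Gm49356 on the same strand, which measured 0.0496 to 1.78 CPM, and Ndufb6 shares 39.0% with Smim27 and Ndufaf2 65.6% with B230220B15Rik on the opposite strand. How the counting treated strand is not given in the sources used here, so these levels are uncertain. Ndufb11b was the 1 gene of the 46 that did not pass the filter. It had 4 counts in mimic 3, 1 count in inhibitor 4 and 0 in the other 10 libraries, and a count of 3 is worth 0.0404 to 0.0494 CPM in these libraries. How reads were divided between it and its namesake Ndufb11 is not known.

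**Figure D1:**
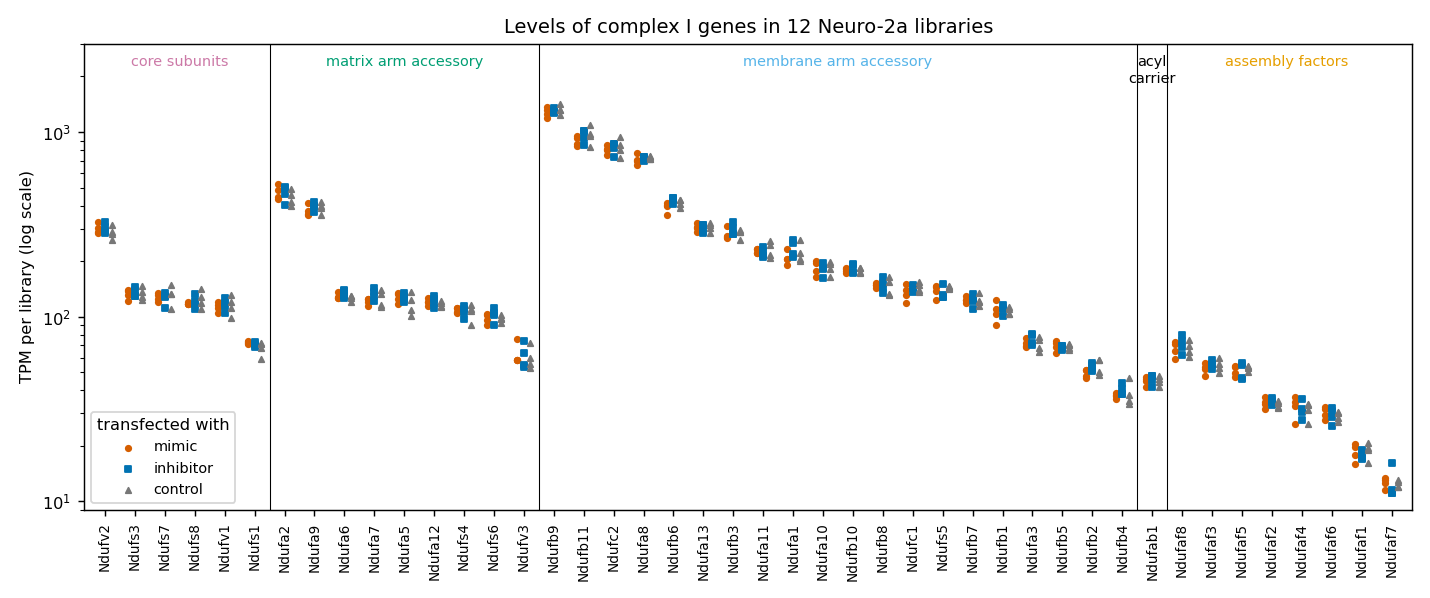
TPM on a log scale in each of the 12 libraries for 44 of the 45 complex I genes that passed the filter, grouped by role and ordered by mean TPM, with mimic, inhibitor and control libraries from left to right in each gene. Within a gene the libraries lie close together, while between genes the means run from 12.5 TPM for Ndufaf7 to 1302 TPM for Ndufb9.

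The level of a given gene varied little between libraries. The highest library was a median of 1.31 times the lowest for subunits and 1.34 times for assembly factors, against 1.48 times for all genes tested and 1.39 times for the 9219 genes averaging 10 CPM or more. The widest range among the 45 was that of Ndufv3, an accessory subunit of the module that oxidises NADH, at 1.53 times, and the narrowest that of the membrane arm subunit Ndufb5, at 1.14 times. Single libraries took many of the extremes. Control 2 was the highest library for 24 of 45 genes, and mimic 1 was the lowest for 20 and control 4 for 12. Ndufs1 and the matrix arm subunit Ndufs4 ran the other way, with their lowest values in control 2. The same counts were not made over all genes, so these extremes may not be particular to complex I genes.

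The mean log2 CPM of the 37 subunits was 6.32 ± 0.07 in mimic, 6.38 ± 0.06 in inhibitor and 6.36 ± 0.11 in control libraries (SD, n = 4 each). That of the 8 assembly factors was 4.43 ± 0.05 in mimic, 4.46 ± 0.07 in inhibitor and 4.45 ± 0.04 in control. Subunits minus assembly factors came to 1.89 ± 0.02 in mimic, 1.92 ± 0.10 in inhibitor and 1.91 ± 0.08 in control on the log2 scale. For subunits and for assembly factors the group means differed by less than the SD of any group. For subunits minus assembly factors the means of mimic and inhibitor differed by more than the SD of the mimic libraries and by less than that of the inhibitor libraries. No test was made of a score over chosen genes.

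Added miR-155 was compared with control to ask whether complex I genes respond to it, and 0 of 45 complex I genes passed an adjusted p of 0.05 by edgeR, as did 0% of all 13014 genes tested. No complex I gene had an unadjusted p under 0.05 (71 of all genes did). DESeq2 called 0 of the 45 and 3 of all genes (0.019%). All 45 log2 fold changes were within 0.25 of 0, and all 45 of their 95% intervals included 0, with bounds from -0.36 to 0.36. In no complex I gene were mimic and control free of overlap, where 0.684% of all genes were. The median log2 fold change was -0.04 for subunits, 30 of 37 being negative, and -0.02 for assembly factors, 5 of 8 being negative. For all genes it was -0.01, with 6951 of 13014 negative. The signs were uneven between the arms, with negative values in 20 of 20 membrane arm subunits (median -0.06), 5 of 7 core subunits (median -0.06) and 4 of 9 matrix arm subunits (median 0.01). Without control 2 the median of the subunits was 0.02, so its sign rested on that library.

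The 3 genes of smallest p in this comparison were Ndufb2, Ndufs1 and Ndufc1. Ndufb2, a membrane arm subunit, had 52.9, 59.8, 62.0 and 58.4 CPM in mimic 1 to 4, against 58.2, 74.1, 70.4 and 57.2 CPM in control 1 to 4. Control 2 and control 3 lay above every mimic library and the other 2 controls among them, and the log2 fold change was -0.16 (95% interval -0.36 to 0.05). Ndufs1 had 185, 191, 194 and 196 CPM in mimic 1 to 4, against 184, 167, 181 and 193 CPM in control 1 to 4. The groups overlapped through control 4, and the log2 fold change was 0.08 (-0.04 to 0.20). Ndufc1, a small membrane arm subunit, averaged 50.5 ± 5.38 CPM in mimic and 55.1 ± 4.71 CPM in control (SD, n = 4 each), with a log2 fold change of -0.12 (-0.32 to 0.07). None of the 3 passed (adjusted p = 1 by edgeR for each). For the 3 genes with a seed match, the log2 fold changes of mimic against control were 0.04 for Ndufv2, -0.01 for Ndufb8 and -0.13 for Ndufb11, and each interval included 0.

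The inhibitor was compared with the same control libraries, so the 2 comparisons are not independent. Again 0 of 45 complex I genes passed an adjusted p of 0.05 by edgeR, beside 0% of all genes tested, and 0 had an unadjusted p under 0.05, where 67 of all genes did. DESeq2 also called 0 of them, beside 1 of all genes (0.00634%). All 45 intervals included 0, with bounds from -0.30 to 0.35, and in no complex I gene were the groups free of overlap (0.645% of all genes). The median log2 fold change was 0.03 for subunits, 22 of 37 being positive, and 0.01 for assembly factors, 6 of 8 being positive. For all genes it was -0.01, with 5728 of 13014 positive. Positive values were found in 9 of 9 matrix arm subunits (median 0.07), 4 of 7 core subunits (median 0.01) and 8 of 20 membrane arm subunits (median -0.01). The median of the subunits was -0.02 without inhibitor 1, -0.01 without control 1 and -0.02 without control 4, so its sign too rested on single libraries.

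Ndufs1, Ndufs5 and Ndufa5 had the smallest p in this comparison. Ndufs1 measured 189, 193, 187 and 194 CPM in inhibitor 1 to 4, against 184, 167, 181 and 193 CPM in control 1 to 4, and 3 of the 4 controls lay below all inhibitor libraries. Its log2 fold change was 0.08 (95% interval -0.04 to 0.19). Ndufs5, a subunit on the outer face of the membrane arm, averaged 46.4 ± 3.24 CPM in inhibitor and 49.9 ± 2.58 CPM in control libraries (SD, n = 4 each), with a log2 fold change of -0.10 (-0.27 to 0.06). Ndufa5, a matrix arm subunit, averaged 42.4 ± 1.43 CPM in inhibitor and 39.1 ± 4.77 CPM in control libraries (SD, n = 4 each), with 0.12 (-0.09 to 0.32). None of these passed, with adjusted p = 1 by edgeR.

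Mimic against inhibitor set the 2 opposite reagents side by side, and 0 of 45 complex I genes passed by edgeR or by DESeq2. Of all genes, edgeR called 0% and DESeq2 called 6 (0.0381%). By edgeR, 0 complex I genes and 77 of all genes had an unadjusted p under 0.05. The median log2 fold change was -0.06 for subunits, 34 of 37 being negative, and -0.02 for assembly factors, 5 of 8 being negative. For all genes it was 0.00, with 6326 of 13014 negative. All 45 intervals included 0, with bounds from -0.43 to 0.32. Ndufb6, a membrane arm subunit, was the 1 gene of 45 without overlap, where 0.861% of all genes had none. It had 61.4, 72.6, 72.9 and 74.2 CPM in mimic 1 to 4, against 82.3, 78.9, 78.1 and 75.4 CPM in inhibitor 1 to 4. Its log2 fold change was -0.16 (95% interval -0.33 to 0.01, adjusted p = 1 by edgeR). Ndufa1, a small membrane arm subunit encoded on the X chromosome, averaged 13.8 ± 1.49 CPM in mimic and 15.8 ± 1.41 CPM in inhibitor (SD, n = 4 each), with -0.20 (-0.43 to 0.04). Ndufa7, a matrix arm subunit, averaged 89.3 ± 5.26 CPM in mimic and 99.4 ± 7.35 CPM in inhibitor, with -0.16 (-0.37 to 0.06), and both had an adjusted p of 1 by edgeR.

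**Figure D2:**
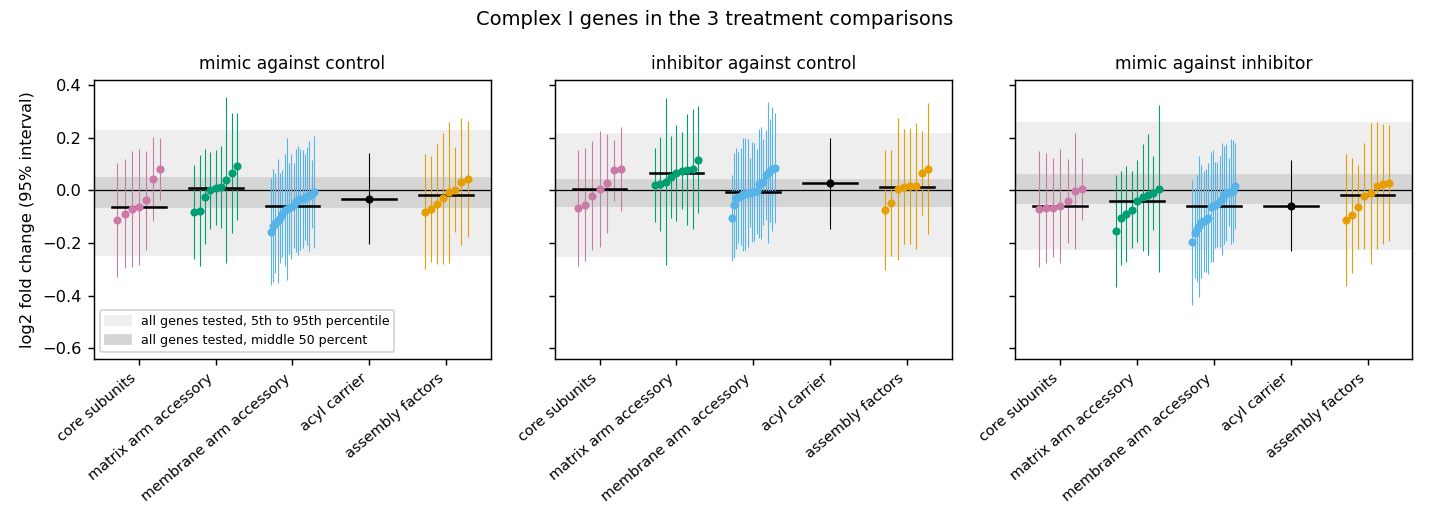
Log2 fold change with its 95% interval for each of 45 complex I genes by role in the 3 treatment comparisons, where black bars are medians of a role and grey bands the middle 50 percent and the 5th to 95th percentile of all genes tested. Every interval crosses 0, and the 20 membrane arm subunits lie below 0 in mimic against control.

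The assembly factors showed no difference past the threshold in any treatment comparison. Their log2 fold changes ran from -0.08 (Ndufaf3) to 0.04 (Ndufaf4) in mimic against control, from -0.08 (Ndufaf1) to 0.08 (Ndufaf8) in inhibitor against control, and from -0.11 (Ndufaf8) to 0.03 (Ndufaf4) in mimic against inhibitor. Core subunits ran from -0.11 (Ndufs8) to 0.08 (Ndufs1) in mimic against control, from -0.07 (Ndufs7) to 0.08 (Ndufs1 and Ndufv2) in inhibitor against control, and from -0.07 (Ndufv1) to 0.01 (Ndufs1) in mimic against inhibitor. Of 12 further complex I assembly genes without an Nduf symbol, among them Acad9, Ecsit, Timmdc1 and Foxred1, 0 passed in any of the 3 comparisons by edgeR, and Coa1, also on that list, gave no value here.

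The replicate number was examined because the same number occurs in each group and many genes of these libraries differ with it. In a joint test of any difference among the 4 numbers, 2 of 45 complex I genes passed an adjusted p of 0.05 by edgeR, against 27.3% of all genes tested. They were Ndufv3 (adjusted p = 0.0190) and Ndufv2 (adjusted p = 0.0381), both of the module that oxidises NADH. The next smallest p-values included those of Ndufa10, Ndufa5, Ndufaf7, Ndufs5 and Ndufs7, with adjusted p from 0.176 to 0.207 by edgeR. The count was 0 without mimic 4 (16.6% of all genes), without inhibitor 4 (13.7%) or without control 4 (14.3%). It was 1 without any one of mimic 1, mimic 3, inhibitor 2, inhibitor 3, control 1 and control 3, where 20.3% to 27.2% of all genes passed. It was 4 without inhibitor 1 (30.7% of all genes) and 8 without control 2 (44.8%).

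Number 4 was then set against the mean of numbers 1 to 3. That number 4 stands apart was known from earlier results of these data. The joint test is thus the main one, and p-values of this contrast only describe where the difference lies. By edgeR 5 of 45 complex I genes passed, 3 higher and 2 lower in number 4, against 41.5% of all genes tested, 20.4% higher and 21.1% lower. Among the 9219 genes averaging 10 CPM or more the share was 48.3%. The median size of the log2 fold change, without its sign, was 0.11 over complex I genes, 0.23 over all genes tested and 0.20 over those with at least 10 CPM. Ndufv3, Ndufv2 and Ndufaf7 rose, and Ndufa10 was among those that fell. The split of calls depended on the scaling. On total counts 2 were higher and 9 lower, against 42.7% of all genes, 16.4% higher and 26.3% lower. On log2(TPM + 1) limma also called 2 higher and 9 lower, against 40.9% of all genes, 17% higher and 23.9% lower. With offsets for gene length and GC content 11 were higher and 6 lower, against 50% of all genes, 23.8% higher and 26.1% lower. By DESeq2 3 were higher and 3 lower, against 37.8% of all genes, 18.8% higher and 19% lower. The count of 5 became 2 without mimic 3 (35.9% of all genes), without inhibitor 4 (28.6%) or without control 3 (36.4%). It became 3 without mimic 1 (37%) and 10 without control 2 (50.2%).

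Ndufv3 measured 67.3, 64.5 and 62.1 CPM in mimic 4, inhibitor 4 and control 4, against 44.1 to 56.7 CPM with a median of 48.4 in the 9 libraries numbered 1 to 3. The ranges did not overlap, and the log2 fold change was 0.39 with a standard error of 0.08 (adjusted p = 0.00241 by edgeR). Within groups the difference was 0.45 in mimic, 0.38 in inhibitor and 0.34 in control on the log2 scale. Ndufv2 measured 202, 201 and 190 CPM in mimic 4, inhibitor 4 and control 4, against 166 to 184 CPM with a median of 173 in numbers 1 to 3. These did not overlap either, and the log2 fold change was 0.18 ± 0.04 (SE, adjusted p = 0.00523 by edgeR). In this contrast both genes passed under 21 of 21 alternative settings, left-out libraries included. In the joint test of all numbers, Ndufv3 passed under 18 of 21 settings and Ndufv2 under 8 of 21.

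Ndufaf7, the methyltransferase, measured 18.6, 22.2 and 17.2 CPM in mimic 4, inhibitor 4 and control 4, against 15.0 to 17.2 CPM with a median of 16.2 in numbers 1 to 3. Control 4 was barely above the highest of the others, and inhibitor 4 stood far above. The log2 fold change was 0.26 ± 0.09 (SE, adjusted p = 0.0363 by edgeR), but 0.10 without inhibitor 4, and the gene passed under 10 of 21 alternatives. Its difference within groups was 0.18 in mimic, 0.52 in inhibitor and 0.03 in control on the log2 scale. The call was lost on total counts, on log2(TPM + 1) and log2(TPM + 0.1), and without any one of mimic 1, mimic 3, mimic 4, inhibitor 1, inhibitor 2, inhibitor 3, inhibitor 4 and control 3.

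Ndufa10, a membrane arm subunit with the fold of a nucleoside kinase, measured 189, 184 and 184 CPM in mimic 4, inhibitor 4 and control 4, against 194 to 237 CPM with a median of 214 in numbers 1 to 3. Its log2 fold change was -0.19 ± 0.06 (SE, adjusted p = 0.0320 by edgeR), and the call was lost without mimic 1, mimic 3, mimic 4, inhibitor 4, control 3 or control 4. Every library numbered 4 lay below all 9 others. With the acyl carrier protein Ndufab1, whose log2 fold change of -0.14 did not pass (adjusted p = 0.102 by edgeR), 3 complex I genes were lower and 3 higher without overlap, where 36.9% of all genes had none.

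**Figure D3:**
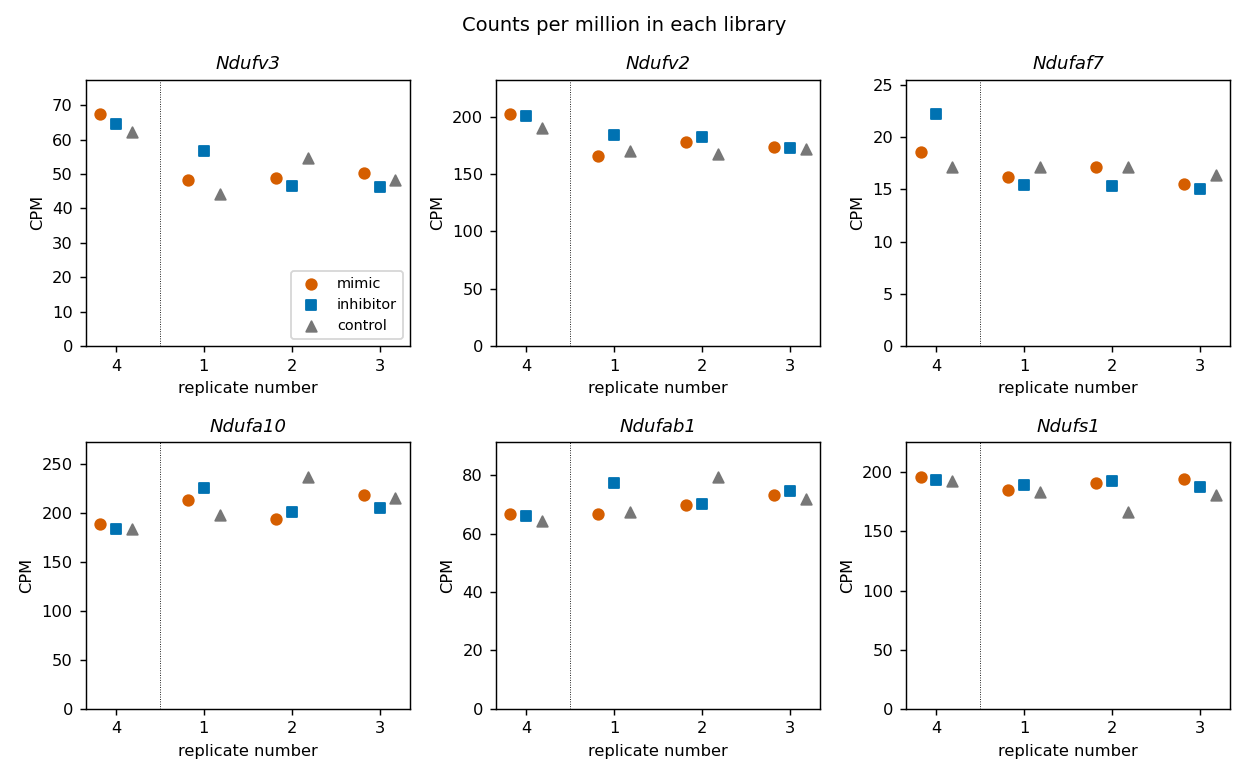
CPM in each library against replicate number for 4 complex I genes called in number 4 against numbers 1 to 3, and for Ndufab1 and Ndufs1, which were not called. Libraries numbered 4 lie above the 9 others for Ndufv3 and Ndufv2 and below them for Ndufa10 and Ndufab1, while for Ndufaf7 inhibitor 4 stands apart at 22.2 CPM.

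The core subunits differed in direction with number 4. Beside Ndufv2 at 0.18, Ndufs1 had a log2 fold change of 0.07, while Ndufv1 had -0.20, Ndufs7 -0.20, Ndufs3 -0.12 and Ndufs8 -0.12, and of these Ndufv2 passed. Ndufv1 and Ndufv2 are partners in the NADH module and their estimates had opposite signs, and the difference between the 2 genes was not tested. Ndufv1 measured 231, 229 and 212 CPM in mimic 4, inhibitor 4 and control 4, against 230 to 301 CPM with a median of 255 in numbers 1 to 3, and overlapped (adjusted p = 0.0673 by edgeR). In all, 27 of 37 subunits had negative values, with a median of -0.10. Positive values were held by 5 of 8 assembly factors, with a median of 0.08. For all genes tested the median was 0.00, with 6508 of 13014 negative. The assembly factors ran from -0.19 for Ndufaf4 to 0.26 for Ndufaf7, with 0.17 for Ndufaf1, 0.15 for Ndufaf6, 0.09 for Ndufaf3, 0.07 for Ndufaf5, -0.05 for Ndufaf2 and -0.11 for Ndufaf8. In each of the 3 groups number 4 was above the mean of numbers 1 to 3 for 9 of the 45 genes and below it for 16, against 34.6% and 34.1% of all genes.

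**Figure D4:**
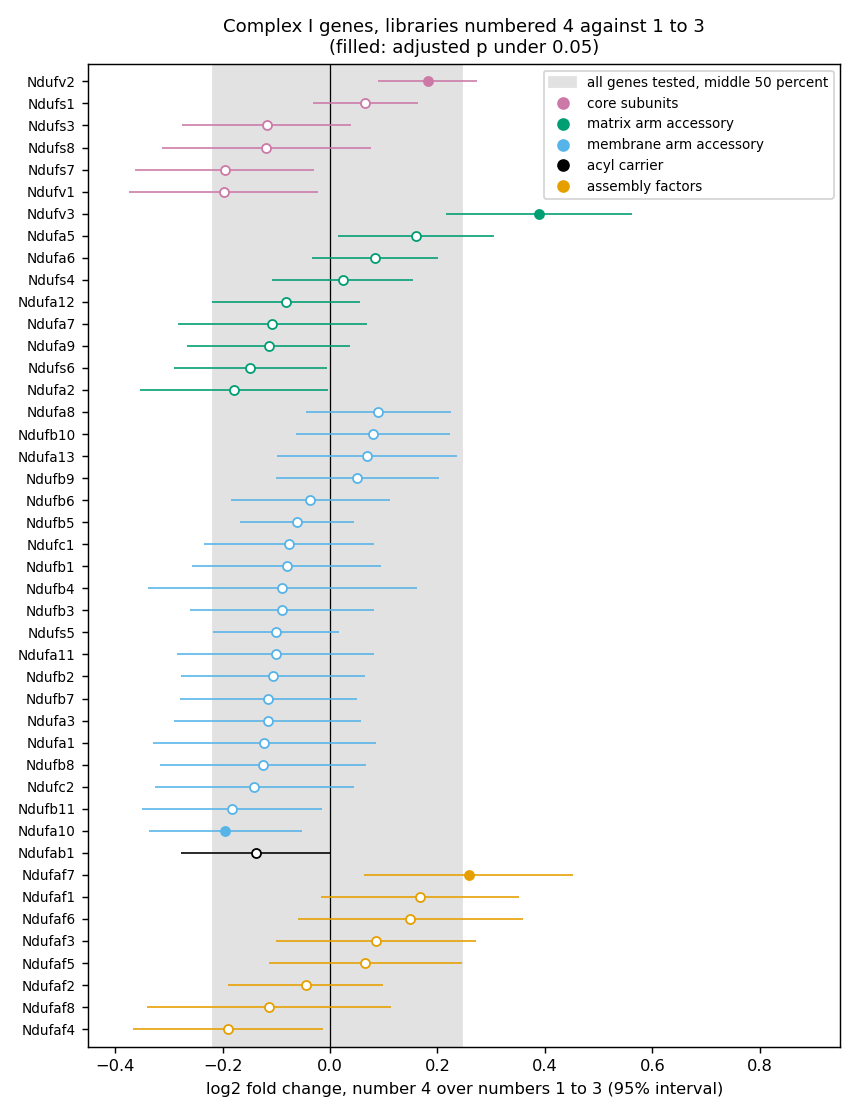
Log2 fold change of number 4 over numbers 1 to 3 with its 95% interval for 44 of the 45 complex I genes by role, where filled points passed an adjusted p of 0.05 by edgeR and the grey band is the middle 50 percent of all genes tested. Ndufv3 at 0.39 and Ndufaf7 at 0.26 lie beyond the band, and most membrane arm subunits lie slightly below 0.

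As a mean over genes in each library, subunits minus assembly factors was 1.89, 1.78 and 1.81 on the log2 scale in mimic 4, inhibitor 4 and control 4. In numbers 1 to 3 it was 1.86, 1.90 and 1.90 in mimic, 2.00, 1.98 and 1.94 in inhibitor, and 1.89, 2.00 and 1.93 in control. The mean was 1.83 ± 0.06 in number 4 (SD, n = 3) and 1.93 ± 0.05 in numbers 1 to 3 (SD, n = 9). Inhibitor 4 and control 4 lay below all 9 other libraries, while mimic 4 lay among them, so the groups overlapped. The difference of -0.10 between the means was larger than either SD and was given no test.

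**Figure D5:**
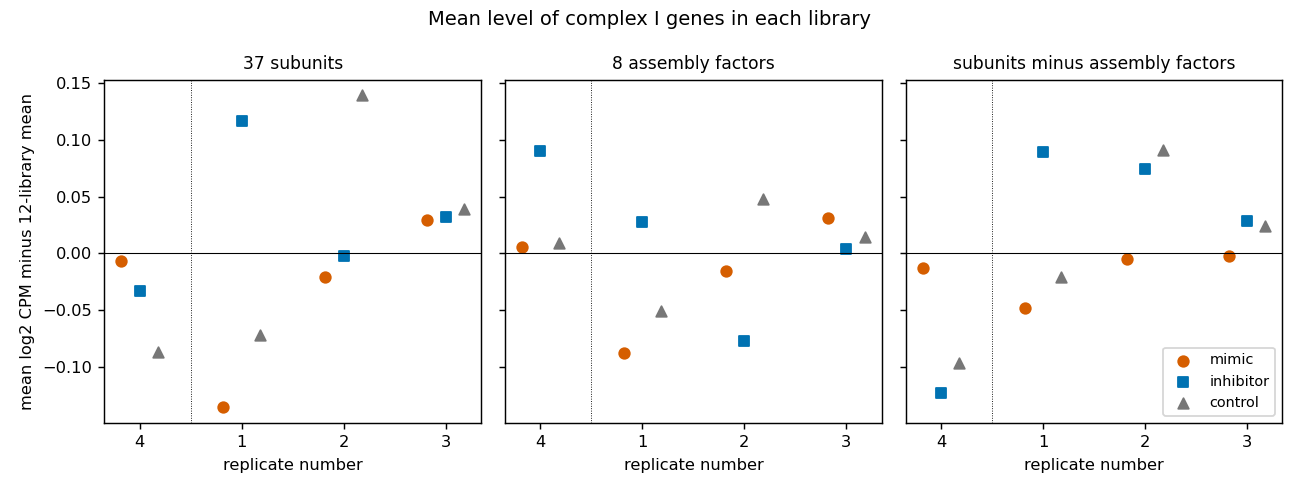
Mean log2 CPM of the 37 subunits, of the 8 assembly factors and of their difference in each library, as the deviation from the mean of 12 libraries, against replicate number, with number 4 on the left and symbols for the 3 treatments. Control 2 and inhibitor 1 are highest and mimic 1 lowest for subunits, and inhibitor 4 and control 4 are lowest for the difference.

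Other markers and genes moved with number 4, and their part in these results was not tested. The summed CPM of the 10 fibroblast markers was 422 to 429 in number 4, against 313 to 354 in numbers 1 to 3, nearly all of it Fn1. That of the 12 neuroblastoma markers was 2470 to 2604 in number 4, against 2467 to 2736 in numbers 1 to 3, that of the 8 glial markers 15.2 to 17.1 against 11.6 to 15.0, and that of the 8 immune and endothelial markers 8.09 to 8.81 against 4.49 to 7.71. The glial sum was mostly Mbp, with 13.8 to 16.0 CPM in number 4 against 10.8 to 13.7 in numbers 1 to 3 (adjusted p = 0.0582 by edgeR, not called). The immune and endothelial sum was nearly all Pecam1, with 7.94 to 8.81 CPM in number 4 against 4.33 to 7.47 in numbers 1 to 3 (adjusted p = 0.0114 by edgeR). Among regulators of mitochondrial genes, Esrra had 69.6 to 120.6 CPM over the 12 libraries and a log2 fold change of -0.42 in number 4 (adjusted p = 0.00215 by edgeR), Tfam 64.7 to 99.7 CPM and -0.30 (0.0131), and Pparg 14.5 to 25.1 CPM and 0.45 (0.00113). Nrf1, Gabpa and Ppargc1b did not pass, and Ppargc1a had 5 counts in 1 library and 0 in the other 11. Of the 12 further assembly genes, 3 fell in number 4 and 0 rose by edgeR, beside 41.5% of all genes called and 21.1% called lower, with log2 fold changes of -0.15 for Acad9 (adjusted p = 0.0400), -0.44 for Tmem186 (adjusted p = 0.00268) and -0.25 for Dmac2 (adjusted p = 0.0147). The 2 genes left out by the choice of members differed from each other, with 2.36 for Ndufa4l2 (adjusted p = 7.28e-07 by edgeR) and 0.06 for Ndufa4 (adjusted p = 0.276).

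Number 3 was compared with the mean of numbers 1 and 2, and 0 of 45 complex I genes passed by edgeR, beside 0% of all genes, with 0 at an unadjusted p under 0.05 (282 of all genes). DESeq2 called 0 of the 45 and 141 of all genes (0.894%). Without control 2, edgeR called 0 of the 45 and 569 of all genes (4.34%), with 2378 of all genes at an unadjusted p under 0.05. The median log2 fold change was 0.03 for subunits and 0.06 for assembly factors, against 0.00 for all genes, and all 45 intervals included 0. The lowest values were those of Ndufaf7 (-0.07) and Ndufb4 (-0.06), and the highest those of the membrane arm subunits Ndufa3 (0.11) and Ndufa1 (0.12). Without control 2 the value of Ndufb4 was 0.03.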

How the data were processed

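The tools named in the submitters' processing notes are STAR, featureCounts, StringTie, fastp and edgeR, and the build is GRCm39. Their versions and roles, the annotation and the strandedness are not stated in the sources used here. The authors deposited whole-number read counts per gene and TPM values. In the 45 genes tested, the count over the TPM was a fixed ratio per gene and library to within 0.000549%, so the TPM values hold the same counts on a length scale.

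The counts were fitted with edgeR 4.0.16 in R 4.3.3: TMM scaling, filterByExpr (13014 genes kept), and a robust quasi-likelihood model over all 12 libraries, with group alone for treatments and group plus number for replicate numbers. Tests were two-sided, Benjamini-Hochberg adjustment covered all genes tested, and a gene was called at an adjusted p under 0.05. DESeq2 1.42.0 and limma 3.58.1 on log2(TPM + 1) served as alternatives, with other scalings, filters, length and GC offsets and left-out libraries. Floors of 3 counts cover counting error only. Simulated data with known changes were used to test these steps. Those made for the treatment comparison held no difference between replicate numbers, unlike these libraries. Log2 CPM values used a pseudocount of 0.5.

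Members, lists and the contrasts between replicate numbers were chosen with earlier results of these data known. The joint test of numbers was the main one. Named were the core subunits, all assembly factors, the 3 members of smallest p in each treatment comparison, the 8 of smallest p in the joint test of numbers, the 2 highest and 2 lowest in each number comparison, and the 3 highest and 3 lowest subunits by TPM; others stand by counts or by a sequence. A gene that the rule takes is not reported here singly and enters only counts and medians. The reference used here, GRCm38 with GENCODE M21 and RefSeq, differs from the authors' build and served only for sequences, lengths, GC content and overlaps. No GRCm39 coordinates are given.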

Additional observations from a re-analysis of the deposited data

Results flagged for a closer look

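Within groups of 4 libraries, 5 of 99 sets of values, from the named genes and the mean scores in each of the 3 groups, held 1 library far from the other 3 by Dixon's criterion, and chance flags about 1 in 20 groups. Ndufaf7 had 22.2 CPM in inhibitor 4, against 15.0 to 15.5 CPM in the other inhibitor libraries. It also had 16.3 CPM in control 3, against 17.1 to 17.2 CPM in the other controls. Ndufv3 had 67.3 CPM in mimic 4, against 48.3 to 50.4 CPM in the other mimic libraries. Ndufb6 had 61.4 CPM in mimic 1, against 72.6 to 74.2 CPM in the other mimic libraries. Ndufs5 had 51.2 CPM in inhibitor 2, against 44.3 to 45.2 CPM in the other inhibitor libraries.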

How the results depend on the processing

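In the 3 treatment comparisons 0 complex I genes were called under every alternative run, left-out libraries included. With the replicate number as a block, 0 were called in each treatment comparison, the medians of the subunits were -0.04 for mimic against control, 0.03 for inhibitor against control and -0.06 for mimic against inhibitor, and 191, 161 and 139 of all genes had an unadjusted p under 0.05; the block changed no call. In their deviations from group means, libraries sharing a number correlated by 0.03 to 0.17 for number 1 and -0.07 to 0.14 for number 2. The correlations were 0.10 to 0.22 for number 3 and 0.44 to 0.53 for number 4, against -0.32 to 0.25 for different numbers. Only number 4 lay above that range, and the main treatment fits did not pair the samples by number. Differences between numbers thus entered the residual spread of those fits, which can widen intervals and raise p-values. In the main edgeR fits 71, 67 and 77 of all genes had an unadjusted p under 0.05, and 0 complex I genes did. With the block, 1 complex I gene did in mimic against inhibitor. In numbers 1 to 3 alone, 1 did in mimic against control (379 of all genes). There 2 did in mimic against inhibitor (163 of all genes). None of these was called. Leaving out 1 library at a time, the median of the subunits ran from -0.08 to 0.02 in mimic against control and from -0.02 to 0.07 in inhibitor against control. The count of complex I genes called in the joint test of numbers was 8 with length and GC offsets (39.3% of all genes) and 4 with limma on log2(TPM + 1) (26.7%) and on log2(TPM + 0.1) (26.4%), and it ran from 0 to 8 with 1 library left out (13.7% to 44.8%). In number 4 against 1 to 3 the count was 8 without group in the model (45.4% of all genes), 11 on total counts (42.7%), 17 with length and GC offsets (50%) and 11 with either limma fit (40.9% and 40.6%), and it ran from 2 to 10 with 1 library left out (28.1% to 50.2%). With 1 library left out, the median of the assembly factors in that contrast ran from 0.027 to 0.13 and that of the subunits from -0.16 to -0.07. Under the other alternatives these medians ran from 0.03 to 0.10 and from -0.15 to -0.05. The value of Ndufb4 in number 3 against 1 and 2 ran from -0.13 to 0.034 and changed sign. The cause of these changes was not tested. The 45 genes tested had at least 792 counts in every library, while a difference in Ndufb11b was not detectable at this depth.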
